A study of Mus musculus with 30 samples.

Results

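The mitochondrial ribosomal proteins were taken as every gene whose symbol in the deposited table is Mrpl or Mrps followed by a number and, at most, 1 further letter. The rule found 77 of the 14173 genes in the table. By symbol, 48 belonged to the large subunit (Mrpl) and 29 to the small subunit (Mrps). All 77 were annotated as protein coding, and their coordinates in the table equalled those of GENCODE M21 for the mouse build GRCm38. Mrpl53, which that release also names, was not analysed here.

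Livers of male C57BL6/J mice, aged 6 months when killed, were compared over 5 diets with 6 livers each. The diets differed in protein source, amount of protein and sulfur amino acids (methionine and cysteine, SAA). Cas-20% held 20% casein with 0.57 gm% methionine and 0.41 gm% cysteine, and Cas-5% held 5% casein with 0.15 and 0.1 gm%. Soy-20% held 20% soy with 0.22 gm% of each, Soy-20% + SAA held the same amount of soy with methionine and cysteine added to 0.58 and 0.41 gm%, and Soy-10% held 11.5% soy with 0.13 gm% of each. Mice arrived at 9 weeks of age, were first kept on the casein or the soy control diet, ate the experimental diet for 12 weeks from 12 weeks of age, and were fasted for 4 h before the livers were taken. There were 10 mice on each diet, of which 6 livers were sequenced. Protein and sulfur amino acids fell together from Cas-20% to Cas-5%, so their contributions cannot be told apart there, whereas Soy-20% and Soy-20% + SAA held the same amount of soy and differed in added methionine and cysteine.

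Mitochondria carry their own ribosome, which is related to that of bacteria and makes the few proteins encoded in mitochondrial DNA, all of them parts of oxidative phosphorylation. Its RNA comes from mitochondrial DNA, but every one of its proteins is encoded in the nucleus, made in the cytosol and imported. Many members have a bacterial counterpart, and the others were acquired by mitochondria. In liver, where mitochondria are abundant, the mitochondrial ribosome supplies subunits to the respiratory chain and the ATP synthase. Symbols do not always match the place in the ribosome. Mrps30 and Mrps18a sit in the large subunit, and Mrps36 is now described as part of the 2-oxoglutarate dehydrogenase complex.

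Promoter sequences are shown for 5 members on which the diet comparisons below turn, because promoters of genes for mitochondrial proteins are known for elements read by NRF1, by GABPA and other ETS factors, and by YY1. RefSeq promoters for the build GRCm38.p6, running from 250 bases before to 50 bases after the gene start, were found for 68 of the 77 members. The following are printed 5′ to 3′ on the gene's own strand, with the searched motifs in capitals.
Mrps27 promoter, chr13:99344536-99344835, plus strand: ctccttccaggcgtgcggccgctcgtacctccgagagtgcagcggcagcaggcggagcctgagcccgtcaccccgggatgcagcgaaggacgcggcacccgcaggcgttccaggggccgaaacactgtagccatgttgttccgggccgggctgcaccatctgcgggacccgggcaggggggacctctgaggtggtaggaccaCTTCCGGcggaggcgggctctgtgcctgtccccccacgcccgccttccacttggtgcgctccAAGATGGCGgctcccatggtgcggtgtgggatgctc
Mrps18a promoter, chr17:46110754-46111053, plus strand: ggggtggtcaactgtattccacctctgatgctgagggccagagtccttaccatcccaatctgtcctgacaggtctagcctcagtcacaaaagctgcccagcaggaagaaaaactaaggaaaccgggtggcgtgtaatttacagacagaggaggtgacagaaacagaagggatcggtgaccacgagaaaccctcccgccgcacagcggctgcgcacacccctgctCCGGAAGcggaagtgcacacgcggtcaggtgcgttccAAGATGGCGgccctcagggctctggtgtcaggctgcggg
Mrps17 promoter, chr5:129715247-129715546, plus strand: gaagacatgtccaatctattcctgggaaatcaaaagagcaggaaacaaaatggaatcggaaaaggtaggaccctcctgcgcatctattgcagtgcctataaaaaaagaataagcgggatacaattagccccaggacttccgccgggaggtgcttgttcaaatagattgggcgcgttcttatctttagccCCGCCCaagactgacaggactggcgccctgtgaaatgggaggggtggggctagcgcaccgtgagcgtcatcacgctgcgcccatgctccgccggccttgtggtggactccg
Mrpl16 promoter, chr19:11770165-11770464, plus strand: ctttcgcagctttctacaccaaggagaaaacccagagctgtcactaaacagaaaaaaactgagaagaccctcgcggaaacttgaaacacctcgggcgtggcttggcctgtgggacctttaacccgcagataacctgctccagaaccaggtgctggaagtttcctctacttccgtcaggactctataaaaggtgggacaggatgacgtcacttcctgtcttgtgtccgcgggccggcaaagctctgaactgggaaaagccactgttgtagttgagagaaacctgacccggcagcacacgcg
Mrpl12 promoter, chr11:120484387-120484686, plus strand: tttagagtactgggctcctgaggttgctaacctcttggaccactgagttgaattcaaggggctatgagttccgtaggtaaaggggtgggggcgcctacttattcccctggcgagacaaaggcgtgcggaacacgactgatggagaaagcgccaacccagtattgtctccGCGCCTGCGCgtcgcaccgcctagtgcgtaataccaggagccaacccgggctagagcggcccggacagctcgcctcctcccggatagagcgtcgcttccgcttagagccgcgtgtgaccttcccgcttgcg
The promoters of Mrps27 and Mrps18a each held 1 ETS letter string (CCGGAAG, in Mrps27 on the opposite strand) and 1 YY1 string (AANATGGCG), the latter from base 265 in Mrps27 and from base 262 in Mrps18a. The promoter of Mrpl12 held an NRF1 string (GCGCA, any base, then GCGC) on the opposite strand from base 170, that of Mrps17 an SP1 string (GGGCGG) on the opposite strand from base 190, and that of Mrpl16 none of the 6 motifs searched. The motif spans printed here did not overlap each other.

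Both strands were searched over whole promoters. The NRF1 string was in 13 of 68 member promoters (19.1%), against 4.78% of all 27025 mouse promoters and 10.7% of the 9314 promoters of genes tested here. The ETS string was in 24 (35.3%, against 9.12% and 18.7%) and the YY1 string in 11 (16.2%, against 2.51% and 5.58%). The SP1 string was in 34 (50%, against 35.9% and 63.8%), and the E-box CACGTG bound by MYC was in 5 (7.35%, against 7.24% and 10.5%). The string TGATGNAA of C/EBP-ATF elements was in 0 of 68, against 4.06% and 2.23%. These shares describe letters in the printed window, and no test of binding was made.

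Member mRNAs were moderately abundant and steady between livers. Values are the authors' normalized counts, that is counts divided by 1 size factor per library, and are not scaled for gene length, so that levels are compared between diets and not between genes except as counts. The median over members was 361, with 72 of 77 members between 100 and 1000. Mrpl34, a small protein of bacterial type, had the highest mean with 1306, followed by Mrpl12 with 1243 and Mrpl14 with 949. At the other end, Mrps18b (8.3), Mrps36 (8.84) and Mrpl23 (9.29) had means under 20, and none of these 3 passed the filter on low counts in the casein comparison. Mrpl23 lay between 1.94 and 23.7, Mrps18b between 1.9 and 14.4, and Mrps36 between 3.86 and 20.3 over the 30 livers, with no diet set apart from the others. In the diets other than Soy-20% + SAA, the coefficient of variation within a diet had a median of 8.2% over members and ran from 4.3% for Mrpl17 to 40.8% for Mrpl23.

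Library totals ran from 7694015 to 14565542 counts with a median of 10803734, and members took between 0.252% and 0.313% of them. The 6 hepatocyte markers were high in every liver, with summed levels between 61399 and 91381 CPM (counts scaled by the library total). This sum was 61399 to 68535 CPM in Cas-20% and 73520 to 91381 CPM in Cas-5% livers, with no overlap, and most of it was Alb (38597 to 64905 CPM over the 30 livers). The markers did not move together, since after TMM scaling 2 of the 6 rose and 1 fell from Cas-20% to Cas-5%, with a median fold of 0.03. The sums of 4 cholangiocyte and 4 endothelial markers were at most 40 and 186 CPM. In bulk liver, fewer cells of a type and less RNA per cell cannot be told apart. Libraries 3 to 6 of Soy-20% + SAA stood apart, which was known from earlier results of these data. Their counts followed the GC content of the last 200 nucleotides of the transcripts, with a slope of 0.054 to 0.199 log2 units per 10% GC, against -0.061 to 0.029 in the other 26 libraries. Library 3 had the smallest of these slopes (0.054), while libraries 4 to 6 had 0.175 to 0.199. The comparisons that use this diet were therefore also fitted with libraries 1 and 2 alone. That leaves 2 livers in the group, so a call can be lost there through lower power. A call can also be lost in a fit with the slope as a covariate, since the highest slopes all belong to this diet.

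Over the 5 diets, the family as a whole moved little. After trimmed-mean (TMM) scaling, the mean log2 CPM of the 77 members, centred on the 30 livers, was -0.00 ± 0.05 (SD, n = 6) in Cas-20% and -0.09 ± 0.06 in Cas-5% livers. The same mean was 0.05 ± 0.04 in Soy-20%, 0.01 ± 0.03 in Soy-20% + SAA and 0.03 ± 0.06 in Soy-10% livers. The Cas-5% livers were the lowest as a group, but 1 of them reached 0.01 and so lay among the Cas-20% livers, which ran from -0.05 to 0.08. Large and small subunits moved together. Their difference (large minus small) was between -0.02 and 0.01 in all 5 diet means, with SDs of 0.01 to 0.05.

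**Figure D1:**
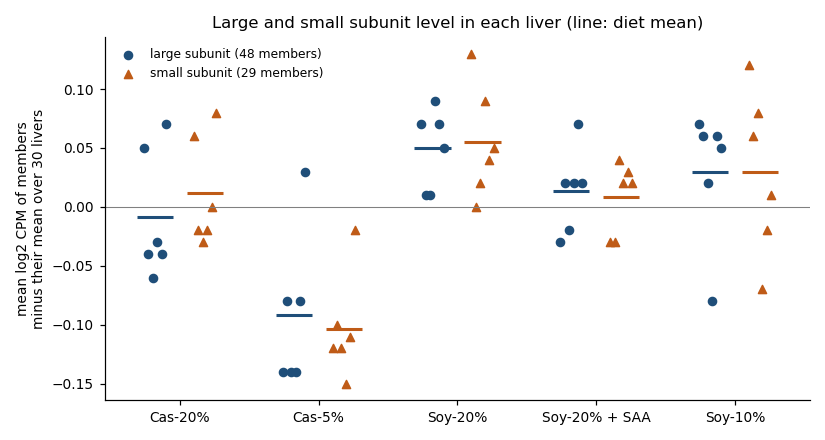
Mean log2 CPM of the large and small subunit members in each of 30 livers (TMM scaling, vertical axis, centred on the mean over all livers), by diet, with a line at each diet mean. Both subunits lie lowest in Cas-5% (means -0.09 and -0.10), a position that depends on the scaling, since the median fold change from Cas-20% turned positive when library totals alone were used.

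In a test of any difference among the 5 diets, 41 of 77 members passed at an adjusted p of 0.05 or less (edgeR quasi-likelihood F test with Benjamini-Hochberg adjustment, used for every adjusted p here), which is 53.2% against 43.4% of all 12561 genes. They were 28 of 48 large and 13 of 29 small subunit members. All 3 proteins of the stalk that recruits translation factors, Mrpl10, Mrpl11 and Mrpl12, were among them. So were 2 of 4 members at the exit of the nascent chain (Mrpl24 and Mrpl45), 2 of 3 along the path of the messenger (Mrps5 and Mrps12), and Mrpl58, a peptidyl-tRNA hydrolase that frees stalled chains. The smallest adjusted p belonged to Mrpl16 (7.0e-05), Mrpl11 (8.5e-05), Mrpl12 (9.2e-05), Mrps18a (2.6e-04), Mrps17 (4.6e-04) and Mrpl19 (5.5e-04), followed by Mrpl9, Mrps22, Mrpl55 and Mrps25 (6.5e-04 to 8.3e-04). With the library's GC slope as a covariate 25 members passed (32.5%, against 28.1% of all genes), and 25 also passed when only libraries 1 and 2 of Soy-20% + SAA were kept (32.5%, against 26.2%).

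**Figure D2:**
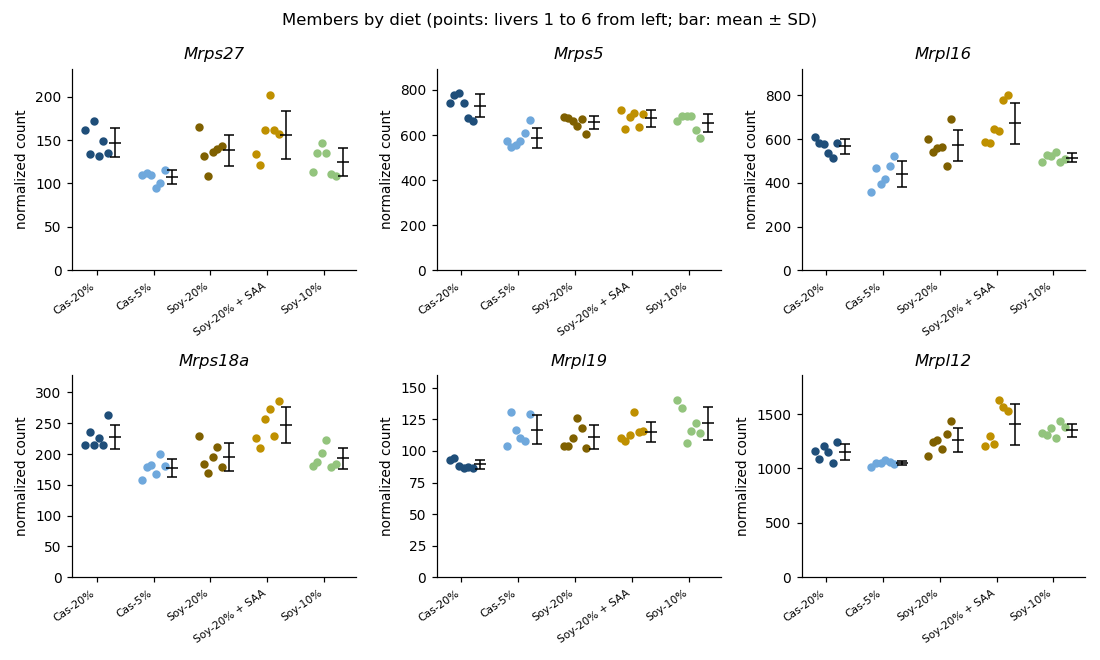
Normalized counts (vertical axes, from 0) of 6 members in livers 1 to 6 of each diet, left to right, with the mean and SD as a bar. Mrps27 and Mrps18a lie lower in all 6 Cas-5% than in all 6 Cas-20% livers, Mrpl19 is lowest in Cas-20%, and Mrpl12 is narrowly spread in Cas-5% (1016 to 1074).

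The first comparison asked what casein restriction did, by setting Cas-5% against Cas-20%. Of 74 members tested, 17 changed, 2 of them rising and 15 falling, by 0.19 to 0.45 on the log2 scale. This is 23% of members against 24.9% of all 12076 genes (11.6% higher and 13.3% lower). The fold was negative in 62 of 74 members and its median was -0.10, against 0.02 over all genes. This direction depended on the scaling. With library totals in place of TMM, the median of all genes moved to 0.20 and that of members to 0.08, 21 of 74 members were negative, and 9 were called, 8 higher and 1 lower, which is 12.2% of members against 38.6% of all genes. Members took 0.252% to 0.285% of all counts in Cas-20% and 0.276% to 0.313% in Cas-5% livers. Folds below are relative to TMM, which sets the bulk of genes near 0.

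Among members of the small subunit, 7 of 27 tested fell and 0 rose, with a median of -0.09. Mrps27, a pentatricopeptide repeat protein that binds the small ribosomal RNA, had the smallest adjusted p of the family. Its normalized count had a lowest, median and highest value of 132, 142 and 172 in Cas-20% and of 94.2, 110 and 116 in Cas-5% livers. All 6 restricted livers lay under all 6 control livers, and the level fell by 26.7% (log2 -0.45, SE 0.09, adjusted p = 0.0018). The call held in all 8 other ways of fitting and without any single liver, library totals included (log2 -0.27, adjusted p = 0.041).

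Mrps5, which lines the entry of the messenger, was at 664, 742 and 787 in Cas-20% and at 548, 572 and 666 in Cas-5% livers. Only the highest restricted liver reached past the lowest control, and the log2 change was -0.30 (SE 0.07, adjusted p = 0.0039). Mrps17, a bacterial-type protein of the small subunit body, was at 632, 652 and 828 against 504, 542 and 588, with no overlap (log2 -0.30, SE 0.07, adjusted p = 0.0063). Mrps7, in the head of the subunit, was at 510, 545 and 629 against 431, 474 and 502, again without overlap (log2 -0.21, SE 0.06, adjusted p = 0.023). The calls of Mrps5, Mrps17 and Mrps7 were lost with library totals, and those of Mrps17 and Mrps7 also with the GC slope as a covariate. Mrps7 was not called either without Cas-20% liver 6 (adjusted p = 0.052) or without Cas-5% liver 5 (0.055). Mrps25 (-0.32) and Mrps24 (-0.22) also fell, with the call kept in 8 and 5 of the 12 fits that leave out 1 liver, and Mrps24 overlaps the gene Urgcp on the same strand, so reads of the pair may not be told apart. Of those not called, Mrps11 had the lowest fold of the family (-0.24, SE 0.09, adjusted p = 0.058).

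In the large subunit, 8 of 47 tested members fell and 2 rose, with a median of -0.11. None of the 3 stalk proteins and none of the 3 tested exit tunnel proteins was called, with medians of -0.12 and -0.06. Mrpl16, which lies near the site where aminoacyl-tRNA is bound, was at 515, 581 and 608 in Cas-20% and at 357, 442 and 523 in Cas-5% livers. The groups met only at their edges, and the log2 change was -0.35 (SE 0.09, adjusted p = 0.0061). Mrps18a, a large subunit protein counted above with the small subunit by its symbol, was at 215, 221 and 264 against 157, 180 and 200 without overlap (log2 -0.34, SE 0.08, adjusted p = 0.004).

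Mrpl1, which forms the stalk on the side where tRNAs leave, fell by 0.29 on the log2 scale (274, 300 and 316 against 202, 250 and 263, adjusted p = 0.0093). Mrpl28, of bacterial type, fell by 0.25 (276, 290 and 302 against 220, 242 and 262, adjusted p = 0.011). In both, every restricted liver lay under every control. Mrpl27, near the peptidyl transferase centre, was lower by 0.33 (522, 623 and 671 against 396, 485 and 572, adjusted p = 0.015) and Mrpl44, which has a ribonuclease III fold, by 0.37 (183, 217 and 262 against 138, 162 and 207, adjusted p = 0.019), both with overlap. Mrpl34 (-0.23), Mrpl49 (-0.19) and Mrpl55 (-0.23) completed the members that fell, and these 3 lost the call with library totals, with the replicate block and with the GC slope. Of 12 fits without 1 liver, they kept it in 9, 7 and 4. The 6 members described before them, Mrpl16, Mrps18a, Mrpl1, Mrpl28, Mrpl27 and Mrpl44, kept it in all 12 and lost it with library totals, Mrpl27 also in 1 fit over all 30 livers.

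The 2 members that rose were both of the large subunit. Mrpl19, a bacterial-type protein at the contact with the small subunit, was at 86.4, 87.8 and 94.2 in Cas-20% and at 104, 114 and 131 in Cas-5% livers. All 6 restricted livers lay above the controls, a rise of 31.5% (log2 0.39, SE 0.09, adjusted p = 0.0029), and the call held in all 8 other fits and without any single liver. Its Cas-20% livers also lay below all 6 livers of each soy diet, whose lowest values were 102 in Soy-20%, 108 in Soy-20% + SAA and 106 in Soy-10%. Mrpl52, specific to mitochondria, was at 674, 734 and 863 against 801, 866 and 1034 with overlap (log2 0.25, SE 0.08, adjusted p = 0.03). The call of Mrpl52 was lost with the GC slope as a covariate and in 6 of the 12 fits without 1 liver (adjusted p up to 0.078). Mrpl47 had the highest fold of those not called (0.20, SE 0.08, adjusted p = 0.08). In all, 9 of 74 members had no overlap between the diets (1 higher and 8 lower), against 12.9% of all genes.

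Members with and without a bacterial counterpart were also read apart. Of bacterial-type members, 7 of 29 in the large and 4 of 16 in the small subunit were called, with medians of -0.12 and -0.11. Of mitochondria-specific members, the counts were 4 of 20 and 2 of 9, with medians of -0.10 and -0.06. Assigning Mrps30 and Mrps18a to the large subunit and leaving out Mrps36 gave 11 of 49 and 6 of 25. Mrps30 itself had a fold of -0.03 (adjusted p = 0.78).

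**Figure D3:**
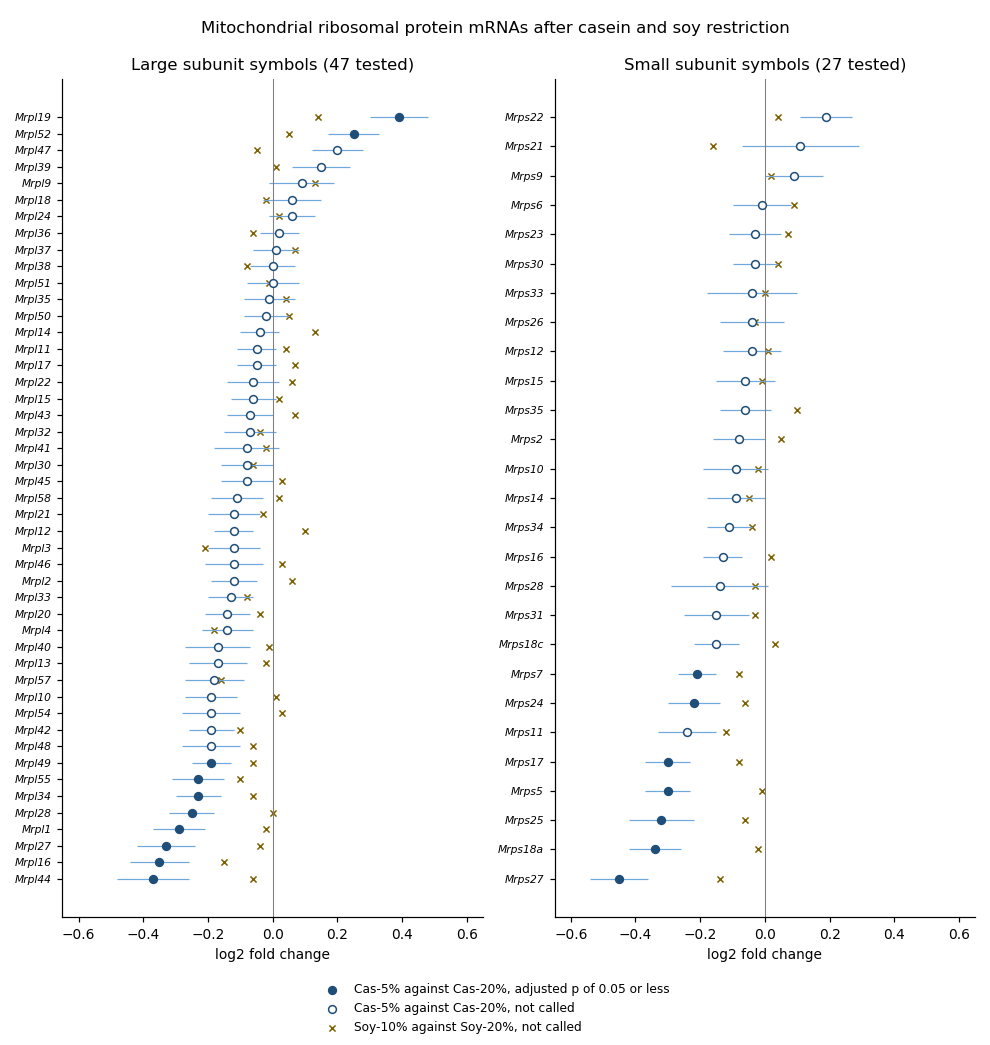
Log2 fold change (horizontal axis) of each tested member, large subunit symbols left and small right, in Cas-5% against Cas-20% (circles with SE, filled where called) and in Soy-10% against Soy-20% (crosses, none called), TMM scaling. Of 74 circles 62 lie below 0, with Mrps27 lowest (-0.45) and Mrpl19 highest (0.39), whereas 21 of 74 lay below 0 with library totals.

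Markers of other cells moved in the same comparison. Of 4 stellate cell markers, 2 rose (median 0.38), and their summed level was 246 to 353 CPM in Cas-20% and 362 to 500 CPM in Cas-5% livers. Of 4 red blood cell markers, 3 fell (median -0.61), with sums of 1245 to 2721 and 997 to 1830 CPM. None of 5 Kupffer cell and none of 4 endothelial markers was called, where 24.9% of all genes were. The endothelial sum was 129 to 153 CPM in Cas-20% and 155 to 182 CPM in Cas-5% livers, also without overlap. The Kupffer cell sum was 103 to 152 and 121 to 171 CPM. CPM are scaled by library totals, with which the median fold of all genes was 0.20. The part of these cells in the member values was not tested.

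Soy restriction was read against 2 controls, which share the 6 Soy-10% livers. Against Soy-20%, 0 of 75 members passed edgeR's test, against 0.866% of all 11897 genes. At an unadjusted p under 0.05 there were 3 (Mrpl3 -0.21, Mrpl4 -0.18 and Mrpl57 -0.16), which is 4% of members against 12.3% of all genes, and DESeq2 also called 0. Folds lay between -0.36 (Mrpl23, SE 0.25, adjusted p = 0.63) and 0.14 (Mrpl19, SE 0.09, adjusted p = 0.59). Their median was -0.02, with -0.01 for the large and -0.02 for the small subunit. No member had livers without overlap, against 1.34% of all genes. Mrps27, for instance, was at 109, 138 and 165 in Soy-20% and at 108, 124 and 147 in Soy-10% livers, which overlapped over most of their range (log2 -0.14). Mrpl16 was at 477, 563 and 692 against 494, 518 and 542, the restricted livers lying inside the range of the controls (log2 -0.15).

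Against Soy-20% + SAA, 10 of 75 members were called, which is 13.3% against 17.0% of all 11983 genes (8.51% higher and 8.47% lower), with 3 higher and 7 lower and a median of -0.07. With library totals the split was 9 higher and 5 lower, which is 18.7% of members against 17.5% of all genes. None was called with the GC slope as a covariate or with only libraries 1 and 2 of the control (edgeR), where 3.10% and 2.54% of all genes were. Calls can be lost in both fits through lower power. In the first, the slope went with the diet, at 0.054 to 0.199 in control libraries 3 to 6 and -0.061 to 0.014 in Soy-10%. The fold was negative in 49 of 75 members against all 6 control libraries, in 26 of 75 with the GC slope and in 22 of 77 against libraries 1 and 2. The values below therefore belong to a control in which 4 of 6 libraries carry the GC trend.

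Among those that were lower, the stalk protein Mrpl11 was at 378, 415 and 490 in Soy-20% + SAA and at 320, 349 and 360 in Soy-10% livers (log2 -0.28, SE 0.07, adjusted p = 0.02). Mrpl16 was at 584, 642 and 802 against 494, 518 and 542 (log2 -0.38, SE 0.09, adjusted p = 0.01), and Mrpl48, of the central protuberance, at 296, 306 and 362 against 226, 254 and 293 (log2 -0.33, SE 0.08, adjusted p = 0.015). In Mrpl11, Mrpl16 and Mrpl48 the diets did not overlap, and with Mrpl2 these were the only members without overlap (4 of 75, against 6.22% of all genes). Mrps18a (-0.36), Mrpl58 (-0.28), Mrps25 (-0.26) and Mrps17 (-0.23) were also called lower, all with overlap. Mrpl58 lost the call without Soy-20% + SAA liver 6 (adjusted p = 0.051), and Mrps25 and Mrps17 kept it in 2 and 5 of 12 fits without 1 liver. With libraries 1 and 2 alone as control, the folds of the first 3 were -0.15 in Mrpl11, -0.19 in Mrpl16 and -0.27 in Mrpl48 (adjusted p = 0.41, 0.23 and 0.23). Those of Mrps18a, Mrpl58, Mrps25 and Mrps17 were -0.18, -0.15, -0.07 and -0.11 (adjusted p = 0.44, 0.46, 0.8 and 0.55).

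The members called higher were Mrpl2, Mrpl9 and Mrps28. Mrpl2, which surrounds the peptidyl transferase centre, was at 435, 465 and 497 in Soy-20% + SAA and at 517, 560 and 604 in Soy-10% livers without overlap (log2 0.25, SE 0.06, adjusted p = 0.018). Its fold was 0.25 with the GC slope and 0.23 against libraries 1 and 2, but the call was lost (adjusted p = 0.11 and 0.21). Mrps28 stood at 155 to 345 in every liver of the other 4 diets. In Soy-20% + SAA it was at 238 and 152 in libraries 1 and 2, and at 63.9, 19.2, 41.9 and 16.2 in libraries 3 to 6. Its fold was 1.60 (SE 0.47, adjusted p = 0.033) against all 6 and 0.43 (adjusted p = 0.15) against libraries 1 and 2, and it kept the call in 2 of 12 fits without 1 liver. Mrpl9 followed the same split, with 141 and 130 in libraries 1 and 2 and 83.3, 43.1, 83.9 and 54.7 in the others, and folds of 0.96 (SE 0.23, adjusted p = 0.014) and 0.34 (adjusted p = 0.26). Mrpl27, the uncalled member with the highest fold (0.63, SE 0.23, adjusted p = 0.07), was at 588 and 575 against 373, 178, 340 and 268. On the other side, Mrps27 had the lowest uncalled fold (-0.33, adjusted p = 0.078).

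Across members, libraries 3 to 6 differed from libraries 1 and 2 by a median of 0.17 log2 units, with a range from -2.58 (Mrps28) to 0.55 (Mrps36). By 0.5 or more, 6 members were lower and 1 was higher. Members' GC content over the last 200 nucleotides ran from 19.0% to 58.0%, and over the 77 members its Pearson correlation with that difference was 0.22, where all points share the same 6 libraries.

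**Figure D4:**
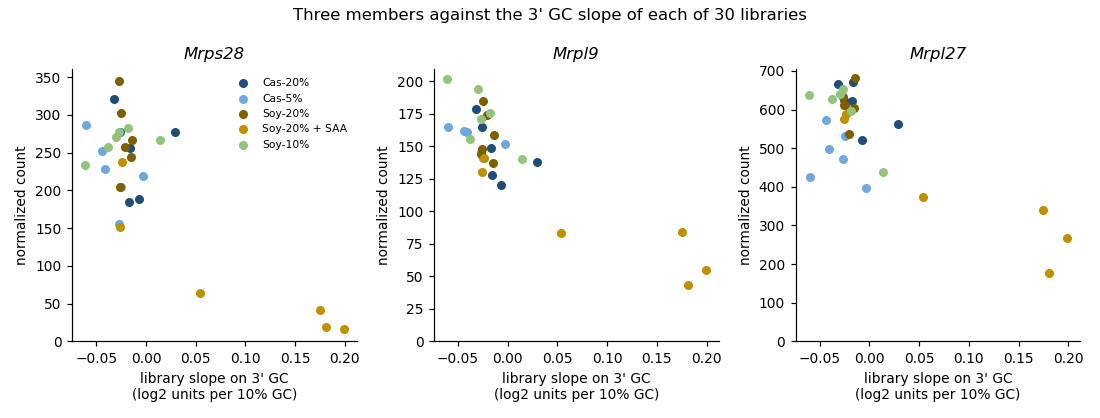
Normalized counts of Mrps28, Mrpl9 and Mrpl27 (vertical axes) in 30 libraries against each library's slope of log2 counts on the GC content of transcript ends (horizontal axis), coloured by diet. The 4 Soy-20% + SAA libraries with slopes of 0.054 to 0.199 hold the lowest counts of all 3 genes, for Mrps28 from 16.2 to 63.9.

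Comparisons between diets with 20% protein gave few calls. Between Soy-20% and Soy-20% + SAA, which differ in added methionine and cysteine, 0 of 75 members passed edgeR's test, against 0.00838% of all genes. At an unadjusted p under 0.05 there were 17, against 24.2% of all genes, and DESeq2 called 7 (9.33%, against 7.42% of all genes). With libraries 1 and 2 alone edgeR again called 0 of 76, against 0% of all genes, in a fit with fewer livers and so lower power. The diets did not overlap in 3 members, against 2.04% of all genes (Mrpl32 higher, Mrpl11 and Mrpl48 lower without the addition). Between Cas-20% and Soy-20% + SAA, which hold like amounts of sulfur amino acids from different proteins, 3 of 74 were called, all lower in casein, against 2.43% of all genes (1.42% higher and 1.01% lower). They were Mrps22 (log2 -0.44, SE 0.10, adjusted p = 0.04), Mrpl19 (-0.37, SE 0.08, adjusted p = 0.041) and Mrpl11 (-0.31, SE 0.07, adjusted p = 0.046), and none was called with the GC slope, with libraries 1 and 2 only or with the replicate block. Each kept the call in 2 of 12 fits without 1 liver. Mrps22, a mitochondria-specific protein of the small subunit, was at 208, 251 and 286 in Cas-20%, at 289, 330 and 360 in Soy-20% and at 288, 337 and 402 in Soy-20% + SAA livers. Every casein control liver thus lay under every liver of both soy control diets. The diets of this comparison did not overlap in 4 members (Mrps22, Mrpl19, Mrpl11 and Mrpl2), against 2.69% of all genes.

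Between the restricted diets, Cas-5% against Soy-10%, 5 of 75 members were called, all lower with casein, against 10.7% of all 12041 genes (4.59% higher and 6.14% lower). The fold was negative in 65 of 75 and its median was -0.13, against 0.01 over all genes. With library totals, 53 of 75 were negative, the median was -0.05 against 0.09 over all genes, and 1 member was called (1.33%, against 13.1% of all genes). That member was Mrpl12, the flexible stalk protein that contacts elongation factors. It was at 1016, 1050 and 1074 in Cas-5% and at 1279, 1349 and 1440 in Soy-10% livers. The 12 livers did not overlap, the difference was -21.4% (log2 -0.35, SE 0.05, adjusted p = 3.0e-04), and the call held in all 8 other fits and without any single liver. Mrpl10, which anchors Mrpl12 to the ribosome, was at 300, 342 and 372 against 373, 420 and 442, the groups just clear of each other (log2 -0.25, SE 0.07, adjusted p = 0.024). It was not called without Cas-5% liver 4 (adjusted p = 0.061), without Soy-10% liver 3 (0.054) or in 1 fit over all 30 livers. Mrps18c (-0.23, SE 0.06, adjusted p = 0.024), Mrpl14 (-0.21, SE 0.06, adjusted p = 0.028) and Mrpl33 (-0.19, SE 0.06, adjusted p = 0.049) overlapped between the diets, and kept the call in 8, 6 and 2 of 12 fits without 1 liver. The diets did not overlap in 3 members (Mrpl10, Mrpl12 and Mrpl55), against 5.86% of all genes. Of the stalk proteins, Mrpl11 was not called.

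The effect of casein restriction minus that of soy restriction, with Soy-20% + SAA as soy control, was tested directly in 24 livers. It was called for 5 of 76 members, against 8.69% of all 12532 genes (3.20% higher and 5.49% lower), and was negative in all 5. Mrpl2 had folds of -0.12 with casein and 0.25 with soy, a difference of -0.37 (SE 0.09, adjusted p = 0.012). Mrpl10 had -0.19 and 0.37 (difference -0.57, SE 0.15, adjusted p = 0.022), and Mrpl27 had -0.33 and 0.63 (difference -0.96, SE 0.26, adjusted p = 0.024). For Mrpl9 and Mrps28 the differences were -0.87 (SE 0.26, adjusted p = 0.037) and -1.75 (SE 0.51, adjusted p = 0.034), called in 10 and 17 of 24 fits without 1 liver. With only libraries 1 and 2 of the soy control none of 77 tested passed, against 2.27% of all genes, in a fit with fewer livers and so lower power. With Soy-20% as control 1 member passed, Mrps5, against 5.99% of all genes. With the GC slope 2 passed, Mrpl2 and Mrps28, against 4.68%. With library totals 6 passed, 4 of them positive, against 12.7%.

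The casein comparison and Soy-10% against Soy-20% + SAA share no livers. Of their 17 and 10 called members, 4 were common, Mrpl16, Mrps17, Mrps18a and Mrps25, which is 23.5% and 40% of each list, and all 4 were lower under restriction. Of all genes called in the same comparisons, 902 were common, which is 30% of the casein and 44.3% of the soy list. All 4 members lost the soy call with the GC slope and with libraries 1 and 2 alone. Over the 6 comparisons of diet pairs, 29 members were called at least once (19 large and 10 small) and 48 never. This is 38.2% of the 76 members tested in any pair, against 36.9% of 12336 genes. The study's threshold also asks for a log2 fold change of at least 1 in size. With it, only Mrps28 passed in these 6 pairs, in Soy-10% against Soy-20% + SAA, where 2.57% of all genes did. In the others it was met by 3.48% (casein restriction), 0.227% (Soy-10% against Soy-20%), 0.00838% (soy controls), 0.475% (Cas-20% against Soy-20% + SAA) and 0.872% (restricted diets) of all genes. For the difference of effects it was again Mrps28, against 2.27%.

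Other parts of the mitochondrial translation machinery were read from gene lists of fixed membership. In the order given here, 40%, 16.7%, 9.09%, 0% and 33.3% of their genes were called with casein, against 24.9% of all genes. Of the 5 mitochondrial ribosomal proteins with other names, 2 fell with casein. Dap3, a GTP-binding protein of the small subunit, had a log2 fold of -0.45 (SE 0.09, adjusted p = 0.0016), and Ptcd3, a pentatricopeptide repeat protein there, of -0.42 (SE 0.12, adjusted p = 0.019). Of 12 translation factors, Gfm1 (-0.48, SE 0.08, adjusted p = 2.6e-04) and Gfm2 (-0.36, SE 0.08, adjusted p = 0.003) fell, the elongation factor and the recycling factor that act on the ribosome beside the stalk. Of 22 assembly and rRNA modification factors, 1 rose (Mrm1, a ribosomal RNA methyltransferase, 0.55) and 1 fell (Mettl15, which methylates the small ribosomal RNA, -0.76). None of 10 genes of mitochondrial transcription and RNA stability was called. Of 9 regulators of mitochondrial genes, Ppargc1a (-0.37) and Ppargc1b (-0.48) fell and Pprc1 rose (0.80), which are related coactivators, while Nrf1 (0.32, adjusted p = 0.069), Gabpa (-0.19, adjusted p = 0.38) and Yy1 (-0.03, adjusted p = 0.86) were not called. With library totals Dap3 (-0.27), Gfm1 (-0.30), Mettl15 (-0.58), Mrm1 (0.73) and Pprc1 (0.98) kept their calls. Ptcd3, Gfm2, Ppargc1a and Ppargc1b lost theirs. Genes not called with TMM were then called higher, Nrf1 (0.50, adjusted p = 0.0052) among them, in a fit that called 38.6% of all genes. The others were Gadd45gip1 (0.33), Mtif2 (0.29), Nsun4 (0.37), Ddx28 (0.45), Ngrn (0.32), Tfam (0.31), Lrpprc (0.43) and Twnk (0.32). Of these, Tfam, Lrpprc and Twnk belong to the list of mitochondrial transcription and RNA stability.

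In Soy-10% against Soy-20%, 0 genes of these 5 lists passed edgeR's test, against 0.866% of all genes. Against Soy-20% + SAA, 20%, 8.33%, 13.6%, 20% and 11.1% of the lists in the same order were called, against 17.0% of all genes. Dap3 (-0.48, SE 0.10, adjusted p = 0.0076) and the initiation factor Mtif3 (-0.25) were lower there. Gtpbp10 (1.26), Mterf3 (0.96) and Rpusd4 (0.54) of the assembly list, and Tfb2m (0.45), Pnpt1 (0.81) and Gabpa (0.62) were called higher there, against the control that holds the libraries with the GC trend. Against libraries 1 and 2 alone none of these 8 was called, with folds of -0.19 in Dap3, -0.24 in Mtif3, 0.85 in Gtpbp10 (adjusted p = 0.065) and 0.07 to 0.27 in the other 5. With the GC slope only Gtpbp10 was called (0.83, adjusted p = 0.045). Of all genes, the fit with libraries 1 and 2 called 2.54% and the fit with the GC slope 3.10%.

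The other families that bracket the mitochondrial ribosome gave more calls in the casein comparison, in which 24.9% of all genes were called. Of 78 tested proteins of the cytosolic ribosome, 61 rose and 0 fell, with a median of 0.36. Of 78 nuclear-encoded subunits of oxidative phosphorylation, which the mitochondrial ribosome complements, 0 rose and 51 fell, with a median of -0.26. The members of the mitochondrial ribosome lay between, at 2 up, 15 down and -0.10. With library totals 73 cytosolic proteins rose and 0 fell (median 0.53), and 2 subunits of oxidative phosphorylation rose and 21 fell (median -0.08). That fit called 38.6% of all genes. In Cas-5% against Soy-10%, 49 of the 78 oxidative phosphorylation subunits were lower (median -0.24) and 2 of the 78 cytosolic proteins higher (median 0.10). These were 62.8% and 2.56% of the lists, against 10.7% of all genes. Against Soy-20%, soy restriction gave 1 call of 78 in the cytosolic (median 0.16) and 0 of 78 in the oxidative phosphorylation list (median -0.07), with 42 and 11 at an unadjusted p under 0.05. Of all genes, 0.866% were called there and 12.3% had an unadjusted p under 0.05. Against Soy-20% + SAA, 19 cytosolic proteins were higher and 1 lower (median 0.15), and 5 oxidative phosphorylation subunits were higher and 7 lower (median -0.11). These were 25.6% and 15.4% of the lists, against 17.0% of all genes. With libraries 1 and 2 alone, 10 cytosolic proteins were higher and 0 lower (median 0.23). For oxidative phosphorylation 2 were higher and 0 lower (median 0.05), in a fit that called 2.54% of all genes.

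**Figure D5:**
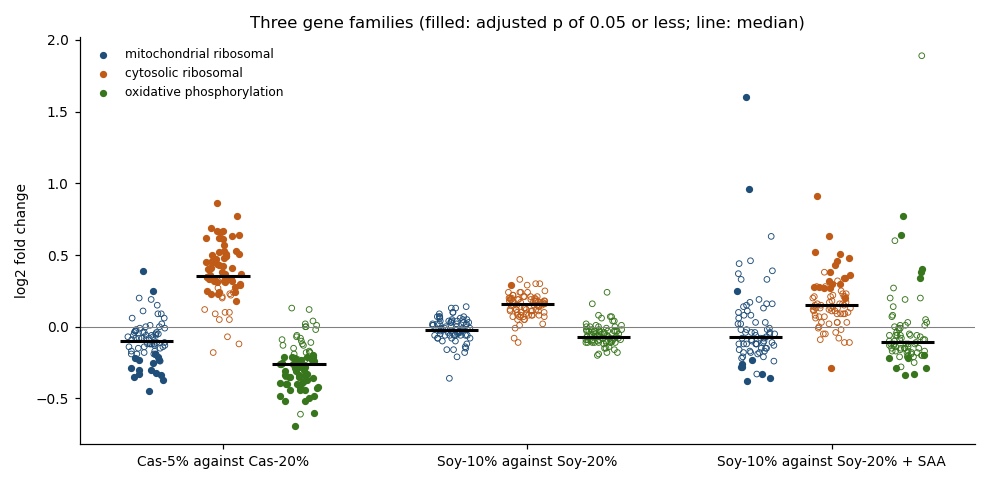
Log2 fold changes (vertical axis, TMM scaling) of single genes of the mitochondrial ribosome, the cytosolic ribosome and oxidative phosphorylation in 3 comparisons, filled where called, with a line at the median. In Cas-5% against Cas-20% the medians are -0.10, 0.36 and -0.26, and with library totals that of the mitochondrial ribosome was 0.08.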

How the data were processed

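RNA of 30 livers was measured by 3′ end sequencing (Lexogen QuantSeq FWD kit, Bluebee pipeline). The deposited table of counts holds reads per gene as the authors assigned them, unnormalized, for genes with a total of at least 90. The other deposited table holds normalized counts (a signal without whole-number units), each library divided by its size factor from DESeq2 1.30 (R 4.0.3, GRCm38 per the labels). The read length is 50 bp in the labels and longer in the study's methods. The aligner and the annotation release are not given in the sources used here. A read counts 1 transcript end, so gene length was not scaled, and genes overlapping on a strand may share reads (3 members overlap another gene on the same strand).

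Genes were kept by filterByExpr and tested on the 12 livers compared with edgeR 4.0.16 (R 4.3.3), TMM scaling and the quasi-likelihood F test, with Benjamini-Hochberg adjustment over all genes at 0.05. The difference of effects used 24 livers and the test over diets 30. Groups followed the diet labels. Members were named by adjusted p (up to 10 per direction, 5 for the difference of effects and 10 over the diets), as highest and lowest counts, as largest uncalled folds, as failing the filter, or by a role list. Members and lists were chosen with earlier results of these data known. Role and marker lists and the motifs came from general knowledge of the genes. Alternatives were DESeq2 1.42.0, RLE size factors, other filters, all 30 livers in 1 fit, a replicate block, the library's GC slope as a covariate and leaving out each liver. Library totals, and libraries 1 and 2 of Soy-20% + SAA for the difference of effects, were added after seeing the data, as were all alternatives for the other gene lists. The tests were checked on simulated counts. Simulated 1.3-fold changes were called in 24.2% of changed genes for casein, 7.0% for the difference of effects and 36.0% over the diets. For 2-fold changes these shares were 97.0%, 68.0% and 94.0%. Most simulated 1.3-fold changes were thus missed. The simulations changed few genes, drawn over a wide range of counts, so these shares need not hold for members. In the casein comparison, members were called at log2 changes down to 0.19 in size. Replicate numbers did not pair livers: same-numbered livers correlated by -0.16 to 0.18. No libraries of the same diet were identical. With 7694015 to 14565542 counts per library, a member with a mean under 20 is limited by counting error. For the other members, counting error and the spread between livers were not separated. Promoters and GC content were read with Python 3.11.15, numpy 2.4.6 and pandas 2.3.3, and figures drawn with matplotlib 3.10.9.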

Additional observations from a re-analysis of the deposited data

Results flagged for a closer look

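Of 145 sets of 6 livers tested for a single distant value (the 29 members called in at least 1 pair of diets, in 5 diets), 9 had one by Dixon's criterion. Chance alone flags about 1 in 20 sets. In Soy-20%, Mrpl1 was at 315 in liver 5 (others 281 to 285), Mrpl2 at 634 in liver 5 (486 to 541) and Mrpl10 at 363 in liver 6 (405 to 427). In Soy-10%, liver 4 was low for Mrpl27 (437, others 596 to 653) and Mrpl33 (462, others 519 to 530), and liver 1 was low for Mrpl11 (320, others 345 to 360). Mrps17 reached 828 in Cas-20% liver 2 (632 to 669), Mrps18c 540 in Cas-5% liver 6 (460 to 471), and Mrpl19 131 in Soy-20% + SAA liver 4 (108 to 116). Values are normalized counts.

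A difference between the casein and the soy effect passed edgeR's interaction test for Mrpl2 (-0.37), Mrpl10 (-0.57), Mrpl27 (-0.96), Mrpl9 (-0.87) and Mrps28 (-1.75 log2 units). None of the 5 passed with only libraries 1 and 2 of Soy-20% + SAA as the soy control, a fit with fewer livers and so lower power.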

How the results depend on the processing

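The median fold of the large and of the small subunit in the casein comparison turned from -0.11 and -0.09 to 0.07 and 0.08 with library totals, under which 9 rather than 17 members were called, and 1 rather than 5 in Cas-5% against Soy-10%. These calls under library totals were 12.2% and 1.33% of members, against 38.6% and 13.1% of all genes. Asking also for a log2 change of at least 1 in size left 0 members with casein, 1 against Soy-20% + SAA, 0 between Cas-20% and Soy-20% + SAA, 0 between the restricted diets and 1 for the difference of effects. The GC slope as a covariate left 0 in Soy-10% against Soy-20% + SAA, 0 between Cas-20% and Soy-20% + SAA, 2 for the difference of effects and 25 over the 5 diets, and gave 9 between the restricted diets. Of all genes, the fits with the GC slope called 3.10%, 0.0417%, 4.68%, 28.1% and 11.2% in the same order. Keeping only libraries 1 and 2 of Soy-20% + SAA gave 0, 0, 0 and 25 in the first 4 of these comparisons. The shares of all genes were then 2.54%, 0.0240%, 2.27% and 26.2%. Taking Soy-20% as soy control left 1 for the difference of effects, against 5.99% of all genes. One fit over all 30 livers gave 21 members in Soy-10% against Soy-20% + SAA, 15 between the soy controls, 19 between Cas-20% and Soy-20% + SAA and 8 for the difference of effects, and DESeq2 gave 7, 8 and 8 in the last 3. In that order, the fit over 30 livers called 27.3%, 19.5%, 24.7% and 10.4% of members, against 24.5%, 14.3%, 18.6% and 10.5% of all genes. DESeq2 called 7.42%, 9.63% and 10.9% of all genes in the last 3. The cause was not tested. With a replicate block, whose numbers did not pair livers, the counts of members were 14 for casein, 11 and 0 for soy restriction against Soy-20% + SAA and Soy-20%, 0 between the soy controls, 0 between Cas-20% and Soy-20% + SAA, 7 between the restricted diets, 5 for the difference of effects and 41 over the diets. Of all genes, the fits with the block called 22.0%, 16.8%, 0.672%, 0.00838%, 1.18%, 11.4%, 10.2% and 42.6% in the same order. Over all alternatives for single called members, 661 values kept the call, 222 lost it and 0 changed sign.

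Leaving out 1 liver at a time gave 13 to 17 members with casein, 6 (without Soy-20% + SAA liver 6) to 22 (without its liver 1) in Soy-10% against Soy-20% + SAA, 0 to 0 against Soy-20%, 0 to 11 between the soy controls and 0 to 16 between Cas-20% and Soy-20% + SAA (both highest without Soy-20% + SAA liver 1). It gave 1 (without Cas-5% liver 4) to 8 (without Soy-10% liver 4 or Cas-5% liver 6) between the restricted diets. For the difference of effects it gave 3 to 12, the highest without Soy-20% + SAA liver 1. The lowest was reached without Cas-20% liver 5 or 6, Cas-5% liver 4, Soy-20% + SAA liver 5 or Soy-10% liver 3. All genes called moved too, from 2601 to 2888 with casein and from 50 to 146 against Soy-20%. Without Soy-20% + SAA liver 1 they were 3119 of 12079 for Soy-10% against Soy-20% + SAA and 1587 of 11974 between the soy controls. Without that liver they were also 1817 of 12073 between Cas-20% and Soy-20% + SAA and 1941 of 12611 for the difference of effects. Between the restricted diets they ran from 981 to 1317. The casein medians stayed between -0.13 and -0.08 in the large and -0.12 and -0.08 in the small subunit, and those of soy against Soy-20% between -0.02 and 0.00 and between -0.03 and 0.01.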
